A study of Drosophila melanogaster with 6 samples.

Results

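The Cpr genes of Drosophila melanogaster encode cuticle proteins that carry the Rebers and Riddiford consensus, a chitin-binding sequence. They were taken as the genes whose symbol in the array's probe annotation begins with Cpr and a digit, each measured by 1 probe set, the brightest on average of those that name no other gene, which gave 66 genes among 11982 on the array. CrebA null mutant embryos (3 arrays) were compared with wild-type embryos (3 arrays) on Affymetrix Drosophila Genome 2.0 arrays of total RNA. CrebA is a bZIP transcription factor, and the title of the series ties it to expression of secretory pathway genes. Embryos of both genotypes were collected over 8 h and aged a further 11 h. The mutants were recognised by their lack of GFP, which the balancer chromosome carries, on a COPAS biosorter that picks intact embryos one by one, and the wild type was passed through the same sorter. One label field places the embryos at stages 11 to 15 and another at stages 11 to 17. The labels name neither the CrebA allele nor the wild-type strain, and nothing tells whether replicates were independent collections. The p-values therefore refer to the spread among these 6 arrays, part of which may be technical.

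The insect cuticle is secreted by the epidermis and by the other ectodermal epithelia that it lines, such as trachea, foregut and hindgut. Chitin fibres are laid down at the apical cell surface and bound by secreted proteins, of which the Cpr family is the largest in many insects, and the mix of proteins differs between soft and hard cuticle and between stages. In the fly embryo the cuticle of the first larva is made late in embryogenesis, and embryos without CrebA are known for a weak and malformed cuticle. Each Cpr symbol carries the cytological position of its gene on the polytene chromosomes, so that Cpr47Ea to Cpr47Eg are neighbours in division 47E. The arrays measured whole embryos, in which fewer cuticle-forming cells and less RNA per cell cannot be told apart.

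Each array gave RMA expression values on a log2 scale for 18952 probe sets, with array medians of 5.47 to 5.58. The brightest of 17 Tag controls, probe sets for sequences that the fly lacks, lay at 4.71 to 4.93 on the mutant arrays and at 4.81 to 5.28 on the wild-type arrays. In both genotypes the array numbered 2 stood apart, as described for the Cpr genes further on, and what sets it apart was not tested. The level of CrebA itself was not analysed here, since the annotation gives that name to no probe set. Markers of the tissues of a whole embryo were present. All 5 epidermis, all 4 trachea and all 3 muscle markers that were matched exceeded the foreign controls on every array, as did 3 of 4 neuron, 3 of 4 midgut, 3 of 4 fat body and 3 of 5 haemocyte markers.

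Of the 66 Cpr genes, 38 exceeded the highest foreign control on all 6 arrays (57.6%, against 66.8% of all genes), 16 did so on 1 to 5 arrays and 12 on none. The 12 were Cpr11B, Cpr47Ed, Cpr47Ee, Cpr49Aa, Cpr49Ad, Cpr49Af, Cpr50Ca, Cpr60D, Cpr62Ba, Cpr65Au, Cpr72Ea and Cpr72Ec, the last of which is known as a protein of the adult corneal lens. No fold is given for them in the text, and those counted further on as called or without overlap have no measured direction. Cpr30B and Cpr78Ca were within the controls on every wild-type array, and Cpr65Aw was within them on every mutant array. RefSeq lists 72 Cpr genes by symbol or synonym, of which 3 (Cpr57A, Cpr65Ax1 and Cpr65Ax2) had only a probe set shared with another gene and 3 are not analysed here.

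A gene was called when its adjusted p was under 0.05 in limma, a linear model with variances moderated over probe sets, with Benjamini-Hochberg adjustment over 18769 probe sets. Cpr47Eb, Cpr64Ac, Cpr76Bc and Cpr67B rose in CrebA null mutants and Cpr47Eg fell, with adjusted p-values of 0.0120 to 0.0348. Of 18769 probe sets 2.33% were called. The 4 risen genes were 6.06% of the family, against 1.9% of all genes, and the 1 fallen gene was 1.52%, against 1.02% of all genes. The family's median log2 change was 0.01, against -0.02 over all genes, with 37 changes above 0 and 29 below. Changes of at least 1 in size on the log2 scale, in either direction, were found for 13 Cpr genes (19.7%), against 3.11% of all genes. Most of these 13 were not called in this fit. The spread within genotypes was also wider in the family, with a median SD of 0.27 in mutants and 0.21 in wild type, against 0.17 and 0.19 over all genes.

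A second fit added the replicate number as a block, so that each mutant array was set against the wild-type array of the same number. With this replicate block 14 Cpr genes rose and 9 fell (21.2% and 13.6%, against 12.6% and 9.21% of all genes). The 23 were 34.8% of the family, against 21.8% of all genes, and took in all 5 calls made without it. They include 1 fall, that of Cpr49Af, at levels within the foreign controls on all 6 arrays. The fitted change of a gene is the same in both fits and its error differs. The remaining 43 genes were called in neither fit and had changes between -0.41 and 0.57, of which 37 were under 0.25 in size. Genotypes did not overlap for 17 Cpr genes (25.8%, against 21.1% of all genes), with 9 higher in mutants (13.6%, against 10.9%) and 8 lower (12.1%, against 10.2%). The 9 include Cpr60D and the 8 include Cpr49Aa, both within the foreign controls on all 6 arrays. The sign of the difference was the same within all 3 numbers for 35 Cpr genes (53.0%, against 54.7% of all genes).

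**Figure D1:**
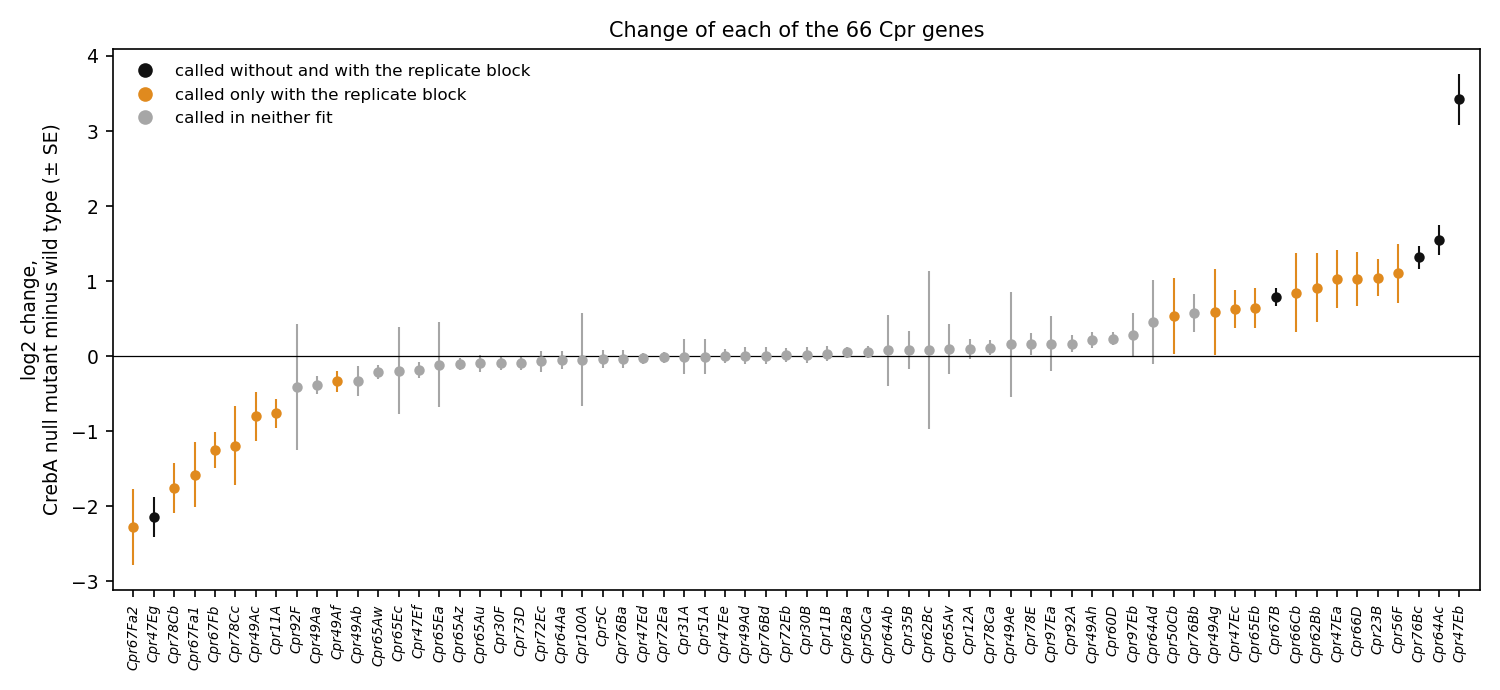
Fitted log2 change (CrebA null mutant minus wild type) of each of the 66 Cpr genes, ordered from lowest to highest, with its standard error from limma without the replicate block. Points are black for the 5 genes called in both fits, orange for the 18 called only with the block and grey for the 43 called in neither, most of which lie close to 0.

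Cpr47Eb had the largest change of the family. Its values were 9.76, 8.52 and 8.88 in CrebA null mutant replicates 1, 2 and 3, against 5.57, 5.37 and 5.96 in wild-type replicates 1, 2 and 3. Every mutant array lay far above every wild-type array. The wild-type arrays were themselves above the foreign controls, replicate 2 only just (5.37, against a highest control of 5.28 on that array). The gene averaged 9.05 ± 0.64 in mutants and 5.63 ± 0.30 in wild type (log2, SD, n = 3 each), a 10.7-fold rise with a log2 change of 3.42 (SE 0.34) and a limma adjusted p of 0.0120.

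Cpr64Ac was at 7.69, 7.04 and 7.70 in mutants and at 5.89, 5.84 and 6.07 in wild type. The mutant array numbered 2 was the lowest of its genotype and still well above all wild-type arrays. The rise was 2.92-fold (log2 change 1.55, SE 0.20, limma adjusted p 0.0234). Cpr76Bc was at 5.80, 6.33 and 6.16 in mutants and at 4.82, 4.65 and 4.88 in wild type. The wild-type values of replicates 1 and 2 were within the foreign controls, so that the 2.49-fold difference (log2 change 1.32, SE 0.15, limma adjusted p 0.0183) starts from a level that was measured above them on 1 of 3 arrays. Cpr67B was at 6.28, 6.33 and 6.06 in mutants, against 5.26, 5.53 and 5.53 in wild type, with a 1.72-fold rise (log2 change 0.79, SE 0.12, limma adjusted p 0.0348). Its call was lost when the arrays were centred on their medians (adjusted p 0.0584) or quantile normalized again (0.0702), in a range of 0.00140 to 0.153 over 20 alternatives.

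Cpr47Eg was the one gene that fell in both fits. It was at 6.41, 6.37 and 6.63 in mutants and at 9.14, 8.08 and 8.63 in wild type. The lowest wild-type array exceeded the highest mutant array by over 1 log2 unit, and no array was within the foreign controls. The fall was 4.43-fold (log2 change -2.15, SE 0.27, limma adjusted p 0.0214).

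Some of these calls were lost when 1 array was left out. Without CrebA null mutant replicate 3, or without wild type replicate 1, none of the 5 was called (adjusted p-values of 0.0544 to 0.0867 and of 0.0590 to 0.131), and without wild type replicate 3 only Cpr47Eb was. Without CrebA null mutant replicate 1 the calls of Cpr47Eb and Cpr76Bc held, without CrebA null mutant replicate 2 those of Cpr47Eb, Cpr64Ac and Cpr76Bc, and without wild type replicate 2 those of Cpr47Eb, Cpr47Eg and Cpr76Bc.

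**Figure D2:**
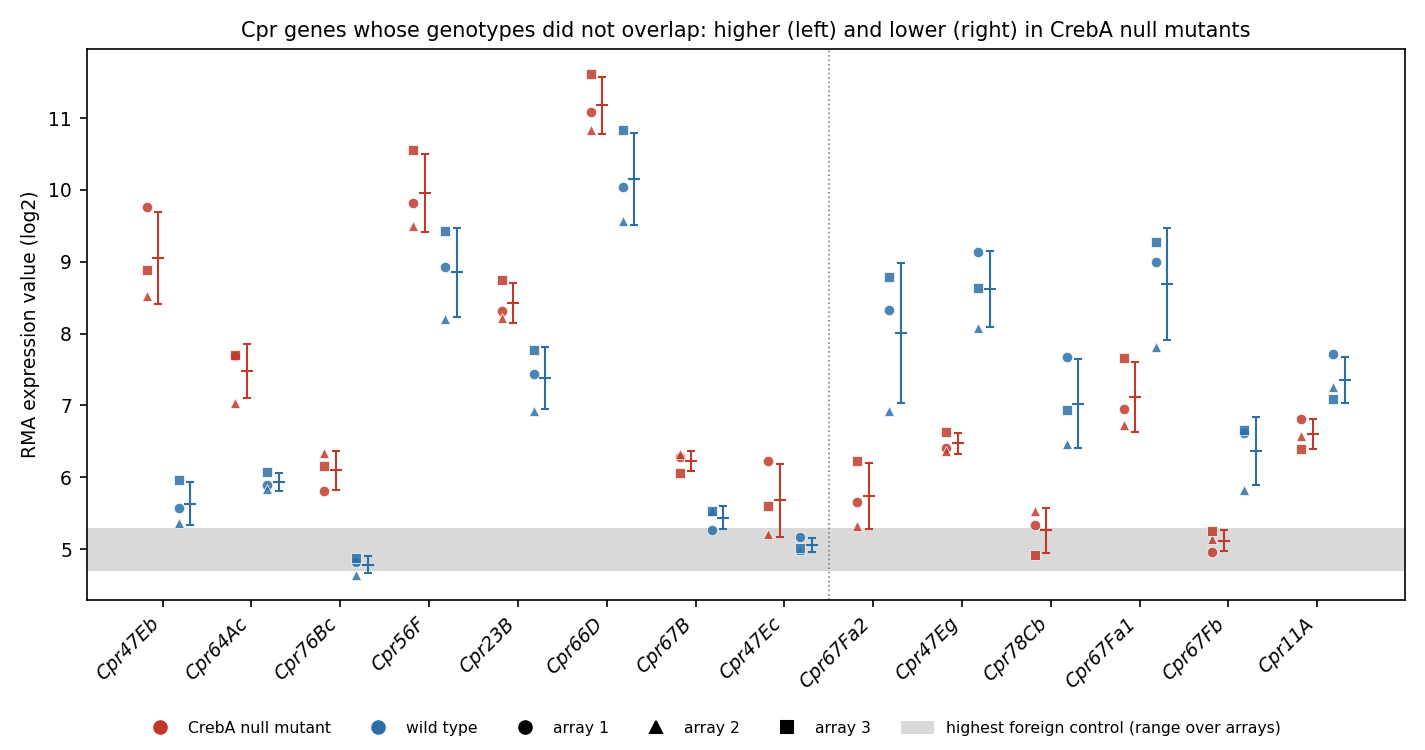
RMA expression values (log2) of 14 Cpr genes whose genotypes did not overlap, with the 8 largest rises left of the dotted line and falls right of it, leaving out Cpr49Aa and Cpr65Aw, whose mutant values are all within the foreign controls. Each gene has its 3 mutant arrays (red) left of its 3 wild-type arrays (blue), with symbols for the replicate number and mean ± SD beside them. The grey band is the range over arrays of the highest foreign control. Cpr47Eb shows the widest separation, and the triangles of replicate 2 are often the lowest.

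Among the genes that rose only with the replicate block, 3 had genotypes that did not overlap and levels above the foreign controls on all arrays. Cpr56F, a relative of the elastic cuticle protein resilin, was at 9.82, 9.49 and 10.55 in mutants, against 8.92, 8.20 and 9.43 in wild type. Its lowest mutant array barely exceeded its highest wild-type array, while the mutant array was the higher one within each number by 0.90, 1.29 and 1.12. The log2 change was 1.10, with an SE of 0.39 without the block (adjusted p 0.270) and of 0.10 with it (adjusted p 0.00149). Cpr66D, another protein of the adult corneal lens, was at 11.08, 10.84 and 11.61 in mutants, against 10.03, 9.57 and 10.84 in wild type (log2 change 1.03, limma adjusted p 0.263 without and 0.00258 with the block). Mutant replicate 2 and wild type replicate 3 were equal to 2 decimals. Cpr23B was at 8.31, 8.22 and 8.74 in mutants, against 7.44, 6.92 and 7.77 in wild type, with no overlap and a log2 change of 1.05 (adjusted p 0.108 without and 0.00208 with the block).

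In 5 other genes above the controls on all arrays, the genotypes overlapped and the mutant array was still the higher one within each number. For Cpr62Bb the 3 differences within numbers were 0.95, 0.89 and 0.90, from 8.54, 7.69 and 9.07 in mutants and 7.59, 6.80 and 8.18 in wild type. The spread between numbers was thus larger than the difference between genotypes, and its adjusted p was 0.490 without and 0.00111 with the block. Cpr66Cb, Cpr65Eb, Cpr49Ag and Cpr50Cb had log2 changes of 0.85, 0.64, 0.59 and 0.54, with limma adjusted p-values of 0.358 to 0.779 without the block and of 0.00266 to 0.0195 with it.

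Of the 8 falls called only with the block, 5 lay at 2 cytological positions, those of all 3 measured genes at 67F and of 2 of 3 at 78C. Cpr67Fa2 was at 5.66, 5.32 and 6.23 in mutants, against 8.33, 6.92 and 8.78 in wild type. Its neighbour Cpr67Fa1 was at 6.95, 6.73 and 7.67 in mutants, against 8.999, 7.81 and 9.27 in wild type. Both were lowest on the arrays numbered 2 in each genotype, and in neither did the genotypes overlap. Their log2 changes were -2.27 (SE 0.51, limma adjusted p 0.0935 without and 0.00173 with the block) and -1.58 (SE 0.44, adjusted p 0.158 and 0.00309). A probe set shared by this gene pair had a log2 change of -0.86 (adjusted p 0.598 and 0.0203), and how far the single-gene probe sets tell the copies apart was not tested. Cpr67Fb, the third gene there, was at 4.96, 5.14 and 5.25 in mutants, against 6.62, 5.82 and 6.66 in wild type, again without overlap (log2 change -1.25, SE 0.24, adjusted p 0.0653 and 0.00780). Its mutant replicates 1 and 2 lay close above the highest foreign control of their arrays (4.81 and 4.93).

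At 78C, Cpr78Cb was at 5.34, 5.53 and 4.92 in mutants, against 7.68, 6.46 and 6.94 in wild type. Its genotypes were well apart, with the mutant arrays close above the foreign controls (log2 change -1.76, SE 0.33, limma adjusted p 0.0594 without and 0.00766 with the block). Cpr78Cc was at 6.44, 6.02 and 6.75 in mutants, against 8.43, 6.40 and 7.95 in wild type. Wild type replicate 2 fell among the mutant values, and the log2 change of -1.19 had an adjusted p of 0.412 without and 0.0369 with the block. Their neighbour Cpr78Ca stayed within the foreign controls on every wild-type array. Without wild type replicate 2 alone and with no block, Cpr67Fa2, Cpr67Fb, Cpr78Cb and Cpr78Cc were called lower (limma adjusted p-values of 0.0123 to 0.0490). With both arrays numbered 2 left out and no block, the 3 genes of 67F, Cpr78Cb and Cpr78Cc were all called, with changes of -2.61 to -1.53 and adjusted p-values of 0.00910 to 0.0242. That fit, on 4 arrays, called 7 fallen and 5 risen Cpr genes, among them the 5 calls from all 6 arrays, and added Cpr49Ac (-0.999) and Cpr47Ea (1.37). Calls were more numerous over the whole array too, with 424 of 18769 probe sets fallen and 581 risen. On all 6 arrays without the block, 171 fell and 267 rose.

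Outside these positions Cpr11A was at 6.81, 6.58 and 6.40 in mutants, against 7.71, 7.26 and 7.09 in wild type, without overlap (log2 change -0.76, SE 0.19, limma adjusted p 0.124 without and 0.00254 with the block). Cpr49Aa and Cpr65Aw also had genotypes that did not overlap, but Cpr49Aa was within the foreign controls on all arrays and Cpr65Aw on all but wild type replicate 3, and neither was called in either fit. A probe set shared by the gene pair Cpr65Ax1 and Cpr65Ax2, and so not counted in the family of 66, was at 8.87, 8.36 and 8.63 in mutants, against 10.92, 9.36 and 10.40 in wild type. Its genotypes did not overlap (log2 change -1.61, SE 0.40, adjusted p 0.119 without and 0.00390 with the block), and it was named after its values were seen.

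**Figure D3:**
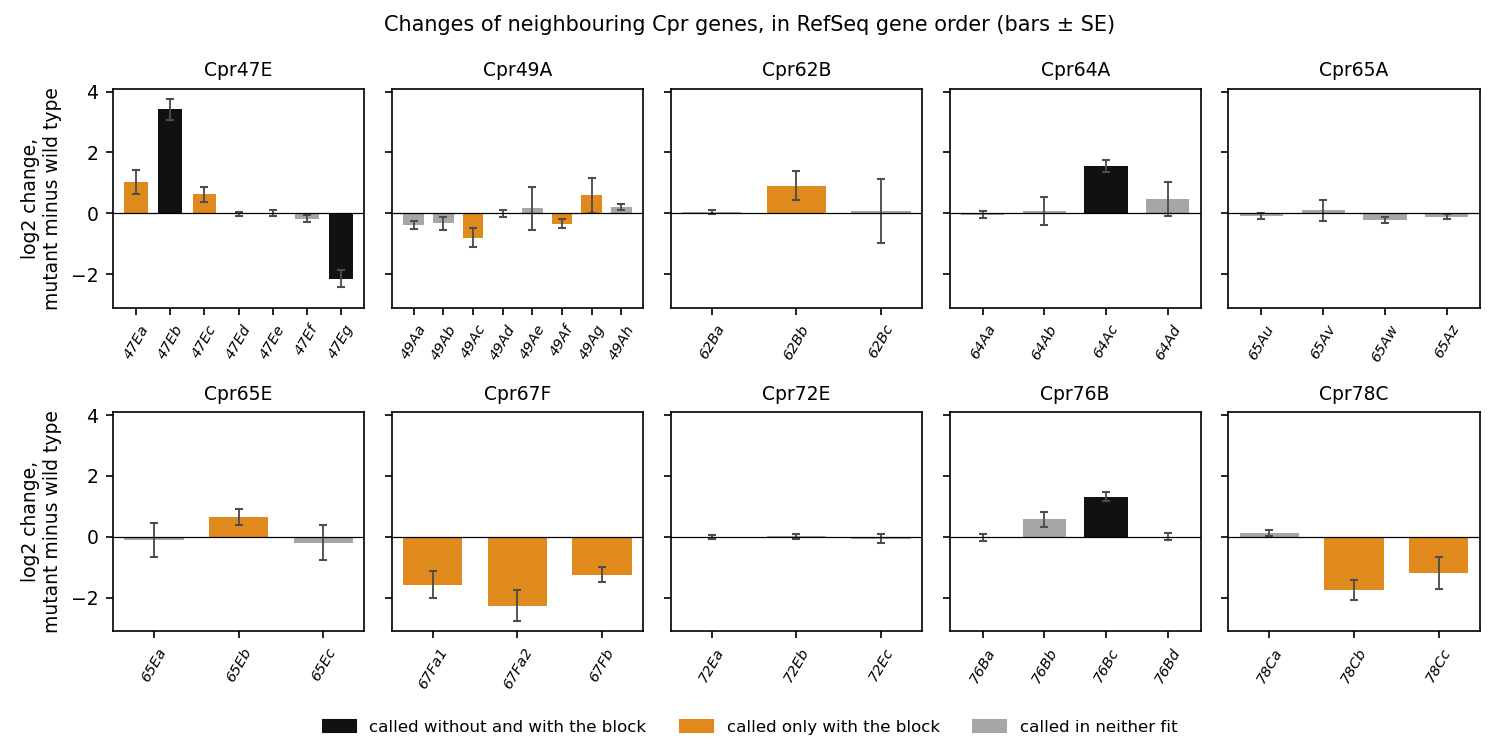
Log2 changes (CrebA null mutant minus wild type) of Cpr genes at 10 cytological positions with 3 or more measured genes, in the gene order of RefSeq, as bars with the standard error from the fit without the block. Black bars are genes called in both fits, orange ones only with the replicate block and grey ones in neither. At 47E bars point both ways, the 3 bars at 67F all point down, and at 64A and 76B 1 gene of 4 stands out.

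Calls often differed between neighbouring genes. The 66 genes lie at 32 cytological positions, 5 of which hold 4 or more, and 20 genes are alone at theirs. At 47E, the position of the largest rise and of the called fall, the first 3 of 7 genes rose, Cpr47Ea and Cpr47Ec only with the block. Cpr47Ea was at 6.62, 5.10 and 6.27 in mutants, against 4.99, 4.75 and 5.17 in wild type, where 2 of 3 arrays were within the foreign controls (log2 change 1.03, adjusted p 0.317 without and 0.0306 with the block). Cpr47Ec was at 6.22, 5.21 and 5.61 in mutants, against 5.17, 4.98 and 5.02 in wild type, where replicate 2 was within the foreign controls (log2 change 0.62, adjusted p 0.350 and 0.0436). The mutant array numbered 2 was the lowest of its genotype in each of the 3. Cpr47Ed and Cpr47Ee, next in order, were within the controls on all arrays. Cpr47Ef had a log2 change of -0.18 (adjusted p 0.591) with its brighter probe set. Its second probe set lay at 4.67 to 4.91, within the foreign controls on every array, and has no measured direction. Cpr47Eg, at the far end, fell.

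At 49A, 3 of 8 genes exceeded the controls on all arrays. With the block Cpr49Ac fell (log2 change -0.80, limma adjusted p 0.348 without and 0.0124 with it) and Cpr49Ag rose, while Cpr49Ae had a change of 0.16 with an SE of 0.70. At 64A, the rise of Cpr64Ac stood between neighbours that were called in neither fit, Cpr64Ab with a change of 0.08 (SE 0.47) and Cpr64Ad with one of 0.46 (SE 0.56). Cpr76Bc likewise had neighbours Cpr76Bb (0.57, SE 0.25) and Cpr76Bd (0.01, SE 0.11) that were not called. At 62B the change was 0.91 for Cpr62Bb and 0.08 for the gene next to it, Cpr62Bc. None of the 4 genes at 65A or the 3 at 72E was called in either fit. Differences between neighbours were not tested.

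The sum of squares between replicate numbers exceeded that between genotypes for 36 of 66 Cpr genes, against 8204 of 11982 genes in all. This was a smaller share in the family than over all genes. The genes that follow were named for the widest wild-type ranges. Cpr62Bc, with the widest range over wild-type arrays, was at 9.90, 7.56 and 10.28 in mutants, against 9.97, 7.24 and 10.29 in wild type. The array numbered 2 was far below the mean of the other 2, with a gap of -2.53 log2 units in mutants and -2.89 in wild type, while the genotypes differed by 0.08. Of the sum of squares of this gene over the 6 arrays, 99.5% lay between numbers and 0.10% between genotypes. Cpr92F was at 6.76, 5.17 and 7.51 in mutants, against 7.59, 5.37 and 7.71 in wild type, close above the foreign controls on both arrays numbered 2. Cpr49Ae was at 7.19, 6.23 and 7.95 in mutants and at 7.30, 5.63 and 7.97 in wild type. Cpr100A was at 6.44, 5.18 and 6.42 in mutants and at 6.86, 4.82 and 6.501 in wild type, where replicate 2 was within the controls. Cpr64Ad was at 11.74, 11.02 and 12.34 in mutants and at 11.45, 10.18 and 12.11 in wild type. In each of these 5 the array numbered 2 was the lowest in both genotypes.

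**Figure D4:**
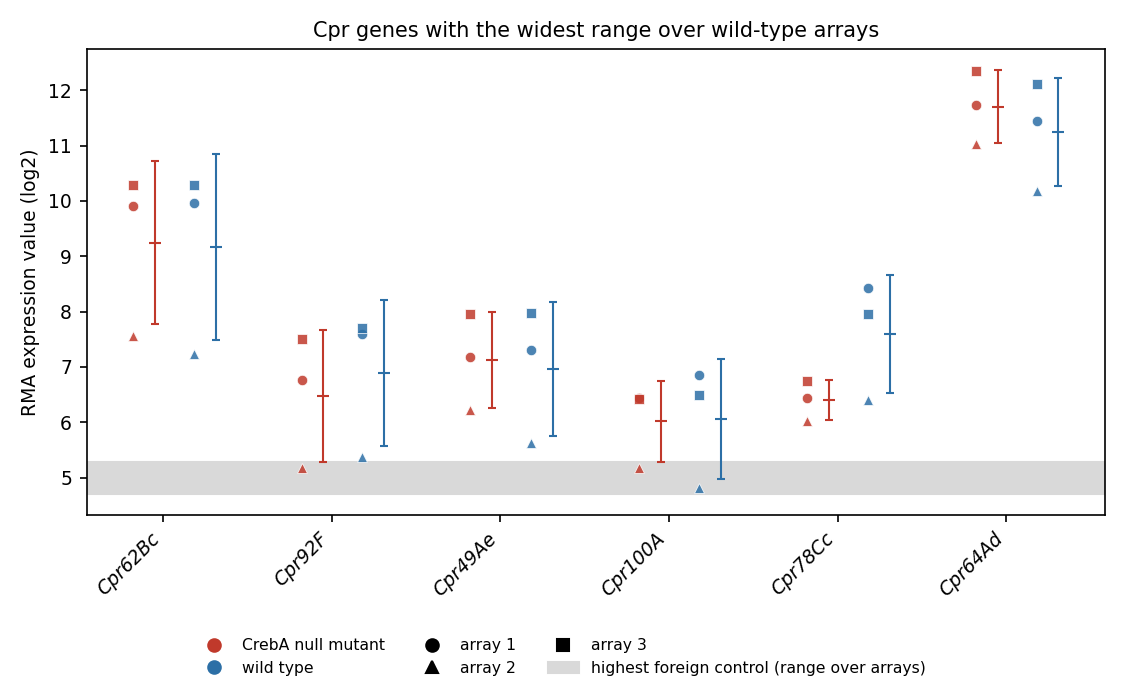
RMA expression values (log2) on each array of the 6 Cpr genes with the widest range over the wild-type arrays. Mutant arrays (red) stand left of wild-type arrays (blue), symbols mark the replicate number, bars are mean ± SD (n = 3) and the grey band is the range of the highest foreign control. The triangles of replicate 2 are the lowest points in both genotypes for all 6 genes, and Cpr78Cc is the one of the 6 that was called, with the block only.

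Counted over the whole family, the array numbered 2 was the lowest of its genotype in both genotypes for 34 of 66 genes (51.5%, against 24.1% of all genes). It was lower than the mean of the other 2 by at least 0.5 log2 units in both genotypes for 21 genes (31.8%, against 9.9% of all genes), and higher by that much in both for 0, against 6.95% of all genes. The threshold of 0.5 was chosen after the values were seen. With the block 6 of the 21 rose, 3 fell and 12 were not called, with changes of -0.41 to 0.46 in the 12. The same fit had 21.2% of the family risen and 13.6% fallen, against 12.6% and 9.21% of all genes. The gap was larger in wild type than in mutants for 16 of the 21, a count that was not made over all genes. The family's median gap was -0.12 in mutants and -0.28 in wild type, against 0.07 and 0.08 over all genes.

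Over the 66 genes the median share was 22.4% between genotypes and 47.2% between numbers, against 18.8% and 55.4% over all genes. Degrees of freedom alone would give mean shares of 20% and 40%. A median can lie away from the mean, so these are no yardstick for the medians. Across the 66 genes, deviations from the genotype means were correlated between the mutant and the wild-type array that share a number (r = 0.36, 0.84 and 0.89 for numbers 1, 2 and 3). Crossed, mutant replicate 3 with wild type replicate 1 gave 0.45 and mutant replicate 1 with wild type replicate 3 gave 0.24. Genes are not independent replicates, and these r values describe the arrays.

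**Figure D5:**
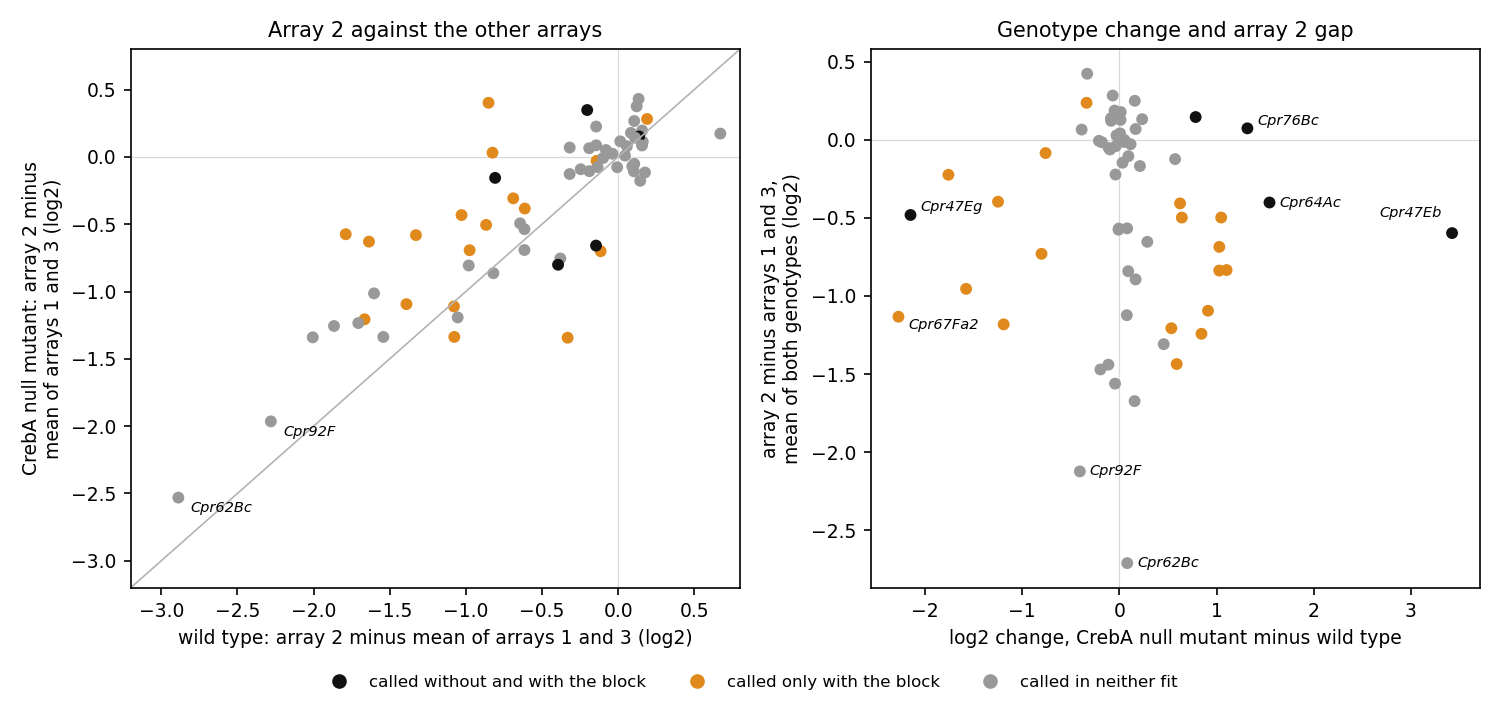
Left, the gap of the array numbered 2 from the mean of arrays 1 and 3 (log2) in CrebA null mutants (vertical) and in wild type (horizontal), 1 point for each of the 66 Cpr genes, with the line of equal gaps. Right, the same gap averaged over genotypes against the log2 change between genotypes. The genes called without the block (black) lie away from the widest gaps, and genes with the widest gaps, such as Cpr62Bc and Cpr92F, were called in neither fit. A wide gap adds to the error of the fit without the block, so that the place of the black points follows in part from the test.

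Other genes of the cuticle were counted in the same fits, in which 1.9% of all genes rose and 1.02% fell without the block and 12.6% rose and 9.21% fell with it. Of 44 other measured cuticle protein genes, of the Tweedle, Lcp, Ccp84A and smaller families, none was called without the block, and 8 rose and 9 fell with it (median log2 change -0.02). They shared the gap of the arrays numbered 2, with medians of -0.56 in mutants and -1.03 in wild type. TwdlF, a Tweedle gene, was at 13.23, 12.62 and 13.57 in mutants, against 12.62, 11.65 and 13.03 in wild type (log2 change 0.70, limma adjusted p 0.573 without and 0.00802 with the block). Of 21 genes of chitin synthesis and assembly, none was called without the block, and 5 rose and 3 fell with it (median 0.18, array 2 gaps of -0.34 and -0.35). Gasp, a chitin-binding protein, had a change of 0.02 (SE 0.25), and the chitin deacetylase gene serp one of -0.04 (SE 0.11).

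Of 16 genes listed as sclerotization and pigment enzymes, some of which cross-link and colour the cuticle, none was called without the block. With it 8 rose and 0 fell (median log2 change 0.25), against 12.6% and 9.21% of all genes. The arrays numbered 2 were not low for this list, with median gaps of 0.11 in mutants and 0.19 in wild type. The prophenoloxidase genes PPO1 and PPO2, those with the highest mean of the list and not among the 8, had changes of -0.07 and 0.07. Whether these PPO genes act in the cuticle was not examined here. Of 12 zona pellucida and apical matrix genes, which shape the cell surface under the cuticle, 1 fell without the block, and 2 rose and 3 fell with it. That gene was neo, at 11.07, 10.79 and 10.58 in mutants, against 11.89, 11.62 and 11.67 in wild type, without overlap (log2 change -0.92, SE 0.15, limma adjusted p 0.0411). The array 2 gap of the matrix list had medians of -0.14 in mutants and -0.05 in wild type. Of 16 ecdysone response genes, which act downstream of the moulting hormone, ImpL1 fell 4.14-fold (adjusted p 0.00783), and 2 rose and 3 fell with the block. The array 2 gap of this list had medians of -0.50 in mutants and -0.37 in wild type. None of the 5 epidermis markers was called without the block and 2 fell with it, and their summed level (log2) was 11.1 to 11.8 in mutants and 11.5 to 12.1 in wild type. None of the 4 trachea markers was called without the block and 2 fell with it, at summed levels of 12.5 to 12.9 in mutants and 12.7 to 13.2 in wild type. All 3 muscle markers rose with the block, at summed levels of 14.0 to 14.4 in mutants and 13.5 to 14.0 in wild type. Of 4 midgut markers 2 rose and 1 fell without the block, and their summed level of 8.71 to 9.04 in mutants, against 11.3 to 11.8 in wild type, followed the fall of mex1, a midgut gene (log2 change -3.84, limma adjusted p 0.00429). Of 4 fat body markers Mtp fell without the block (log2 change -1.04, limma adjusted p 0.0493), at summed levels of 12.5 to 13.5 in mutants and 12.3 to 13.7 in wild type. None of the 4 neuron markers was called in either fit, at summed levels of 11.3 to 11.9 in mutants and 11.6 to 12.2 in wild type. Of 5 haemocyte markers 1 rose, with the block only, at summed levels of 10.3 to 10.7 in mutants and 9.99 to 10.4 in wild type. In mutants the median array 2 gaps of the marker lists ran from -0.87 (epidermis) to 0.20 (midgut). In wild type they ran from -0.51 (muscle) to 0.03 (haemocytes). The part of these marker lists in the changes of the Cpr genes was not tested.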

How the data were processed

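Total RNA of 6 whole-embryo samples was measured, and the values used were log2 RMA expression values deposited by the authors. RMA and Partek are named, per the submitters' processing notes. Their order, versions and filters are not given in the sources used here. The log base was inferred from the values. Gene names came from the platform annotation, and all 66 Cpr gene IDs matched RefSeq (Release 6), which was used only for names and gene order. Genotypes were compared by limma's moderated test (version 3.58.1, R 4.3.3) on the deposited values, with two-sided p-values adjusted over 18769 probe sets (183 Affymetrix controls left out), without and with the replicate number as a block. The code was tested on simulated arrays with known changes. Python 3.11.15 and matplotlib 3.10.9 drew the figures. The number of arrays limits the precision.

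Over all probe sets, deviations from the genotype means correlated between same-numbered arrays (r = 0.64, 0.85 and 0.56, each over 0.1), so the titles' replicate numbers were treated as pairs and blocked values are given beside the others. No label says what a number marks, and arrays 1 and 3 also correlated when crossed (0.57 and 0.37).

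Named genes were all called members, the 8 largest rises and 8 largest falls without overlap, the 6 widest wild-type ranges, members called only with the block, and per other list up to 2 called genes with the largest change or the 2 with the highest mean. The members and lists were chosen with earlier results of these data known. Alternatives were filters, scalings, variance models, array weights, the block, thresholds, probe set choices and arrays left out. A genotype within the foreign Tag controls on all arrays got no fold.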

Additional observations from a re-analysis of the deposited data

How the results depend on the processing

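Without the block, 4 Cpr genes rose, 1 fell and 438 probe sets were called. With array weights the counts were 9, 8 and 2444. With the replicate block they were 14, 9 and 3130. Leaving out both arrays of a number under the replicate block, an alternative added after the data were seen, gave 11, 6 and 1513 without number 1, 14, 8 and 2317 without number 2, and 15, 9 and 3262 without number 3. Each of the 23 blocked calls had the same sign within all 3 numbers, so its direction could not change in these 3 fits. Of the 23, 17, 22 and 21 stayed called. Without the block and without both arrays numbered 2, 7 Cpr genes fell and 1005 probe sets were called. Fallen Cpr genes numbered 2 with the filter on dim probe sets, 2 after quantile normalization again, 3 with a variance trend and 4 at an adjusted p under 0.10, where 894 probe sets were called. Leaving out 1 array gave 0 to 4 risen and 0 to 5 fallen Cpr genes and 40 to 280 called probe sets. The cause of these shifts was not tested. The family's median log2 change stayed between -0.05 and 0.10 and moved by less than its spread between arrays. The 5 genes called without the block kept their direction in all 20 alternatives. Their genotypes did not overlap, so leaving arrays out could not reverse a direction. Several other alternatives left the fitted change as it was. Of 30 named genes, 25 kept their sign in every alternative that gave a value, and Cpr49Ae, Cpr62Bc, Cpr64Ad, Cpr92F and Cpr100A, called in neither fit on all 6 arrays, did not. Many of the 30 were named because their genotypes did not overlap, and for these a kept sign is no added evidence. Cpr49Aa, Cpr49Af and Cpr65Aw had no value with the filter on dim probe sets. Genes within the foreign controls have no measured direction here.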
